A study of Mus musculus with 19 samples.

Results

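The cytosolic ribosomal protein genes were examined in RNA-seq of mouse cerebral cortex at E13.5. Members were chosen by symbol alone: protein-coding genes whose name starts with *Rpl* or *Rps* and goes on with a number, with a for *Rpsa*, or with p0 to p2 for the stalk proteins, leaving out the *Rps6k* kinases. The rule found 86 genes among the 51912 in the count files, of which 46 encode large subunit proteins, 31 encode small subunit proteins and 9 are paralogues or carry a similar name. *Rps19bp1*, the partner protein of *Rps19* that is known as a regulator of SIRT1, met the rule although it is not a ribosomal protein. Counts high enough to be tested were found for 79 of the 86.

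Neocortical tissue of 19 embryos on a mixed C57BL/6 and 129 background was sequenced as 1 library per embryo. The groups were 7 ctrl, 5 cKO-E (Emx1Cre/+;Ino80fl/fl) and 7 dKO-E (Emx1Cre/+;Ino80fl/fl;Trp53fl/fl). The exact alleles of the ctrl embryos were not given in the labels. Cre from the *Emx1* locus acts in dorsal forebrain progenitors and their descendants, so interneurons, microglia and vessels of the same cortex keep their alleles. *Ino80* encodes the ATPase of the INO80 chromatin remodeler, and *Trp53* encodes p53. The deletion removes some exons of *Ino80* and a count over the whole gene does not check it: *Ino80* was at 121 ± 8.62 CPM (counts scaled to a common library size, SD, n = 7) in ctrl, 166 ± 14.7 (n = 5) in cKO-E and 186 ± 13.7 (n = 7) in dKO-E. *Trp53* was at 43.7 ± 5.21 CPM in ctrl, 39.2 ± 4.66 in cKO-E and 34.6 ± 4.92 in dKO-E.

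A cytosolic ribosome is built from ribosomal RNA and a single copy of nearly all of these proteins, whose genes are strongly expressed in dividing and growing cells. Their mRNAs start with a run of pyrimidines (the 5′ terminal oligopyrimidine tract, TOP) through which mTOR signalling controls their translation. Several ribosomal proteins, RPL5 and RPL11 among them, bind MDM2 when ribosome assembly fails and so stabilize p53, and neural progenitors are known to be sensitive to loss of ribosome production.

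Depth ran from 820915 to 8095810 gene counts per library (median 2952788), and the members together held between 3182 and 33584 counts per library. Sequencing batch 1 held 4 ctrl, 3 cKO-E and 4 dKO-E embryos, batch 2 held 3, 2 and 2, and the single library of batch 3 was dKO-E E. Females made up 4 of 7 ctrl, 4 of 5 cKO-E and 2 of 7 dKO-E embryos. The 7 ctrl embryos came from 4 litters, the 5 cKO-E embryos from 5 and the 7 dKO-E embryos from only 2. Embryos of ctrl and cKO-E shared 3 litters, those of ctrl and dKO-E shared 1, and no litter held both mutants. Mitochondrial genes took 0.332% of counts in dKO-E A and 0.638% in dKO-E E, against 1.02% to 1.46% in the other 17 libraries. Cortical marker genes were present in all groups: the summed level of 11 progenitor markers ranged from 1563 to 1770 CPM in ctrl, from 1234 to 1598 in cKO-E and from 1400.4 to 1786 in dKO-E.

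The start regions of 5 of the genes described below are shown because they differ in the factor motifs that ribosomal protein promoters are known to carry. RefSeq start windows (build GRCm38.p6) were found for 66 of the 86 members, and each window below runs from 120 bases before to 30 bases after the annotated start, read 5′ to 3′ on the gene's strand. Capitals mark AAGATGGC (the core of the YY1 motif), CCGGAAGT (the core bound by ETS factors and GABP), TCTCGCGA, and GGGCGGG (the box bound by SP and KLF factors), each searched on both strands, so that CCCGCCC and TCGCGAGA are the same motifs read from the other strand. *Rpl7l1* lies at chr17:46782627-46782776 on the minus strand, *Rpl12* at chr2:32961592-32961741 on the plus strand, *Rpl26* at chr11:68901446-68901595 on the plus strand, *Rps27* at chr3:90213619-90213768 on the minus strand and *Rps27l* at chr9:66945966-66946115 on the plus strand.
Rpl7l1: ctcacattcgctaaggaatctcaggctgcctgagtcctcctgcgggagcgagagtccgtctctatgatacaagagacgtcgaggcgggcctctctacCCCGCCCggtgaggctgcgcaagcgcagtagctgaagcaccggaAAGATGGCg
Rpl12: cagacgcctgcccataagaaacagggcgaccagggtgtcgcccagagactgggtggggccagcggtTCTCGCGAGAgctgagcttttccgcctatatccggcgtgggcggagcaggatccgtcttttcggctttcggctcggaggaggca
Rpl26: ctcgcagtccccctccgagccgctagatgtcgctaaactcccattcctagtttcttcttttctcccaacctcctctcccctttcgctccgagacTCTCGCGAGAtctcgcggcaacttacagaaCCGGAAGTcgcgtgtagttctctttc
Rps27: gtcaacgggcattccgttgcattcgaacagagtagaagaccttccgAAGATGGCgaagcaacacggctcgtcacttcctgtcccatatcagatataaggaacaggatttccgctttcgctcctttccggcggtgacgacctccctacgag
Rps27l: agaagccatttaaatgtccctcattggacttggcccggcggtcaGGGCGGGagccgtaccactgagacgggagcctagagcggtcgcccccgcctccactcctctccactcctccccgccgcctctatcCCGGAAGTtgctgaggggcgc
In *Rpl7l1* the YY1 core stood at bases 22 to 29 from the start and the SP and KLF box at bases -23 to -17. TCTCGCGA was found on both strands with overlap in *Rpl12* (bases -54 to -45) and in *Rpl26* (bases -26 to -17), and CCGGAAGT was found at bases 5 to 12 in *Rpl26* and at bases 10 to 17 in *Rps27l*, whose SP and KLF box was at bases -76 to -70. In *Rps27* the YY1 core was at bases -74 to -67.

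Over the full windows of 250 bases before to 50 after the start, TCTCGCGA was held by 11 of the 66 members (16.7%), against 1.1% of the 27025 genes with a window. CCGGAAGT was held by 12 members (18.2% against 4.31%), GGGCGGG by 31 (47.0% against 27.9%) and AAGATGGC by 6 (9.09% against 3.19%). The 6 genes with the YY1 core were *Rpl7l1*, *Rpl13a*, *Rpl22*, *Rpl35a*, *Rps15a* and *Rps27*. A C followed by 4 pyrimidines, beginning at most 5 bases before or after an annotated start, was found for 30 members (45.5%), against 21.2% of all genes. Whether the first base of the RNA is such a C was not examined. These matches describe the letters of the windows and were not tested against the changes in RNA. *Yy1* itself was at 131 ± 5.30 CPM (SD, n = 7) in ctrl, 118 ± 7.33 (n = 5) in cKO-E and 136 ± 5.35 (n = 7) in dKO-E, and it differed between the mutants (log2 fold change 0.19 in dKO-E against cKO-E, adjusted p = 0.0381, edgeR quasi-likelihood test).

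In ctrl cortex the highest level per length was that of *Rplp1*, an acidic protein of the ribosomal stalk that recruits elongation factors, at 351 CPM per kilobase of annotated exon. It was followed by *Rpl32* (139), *Rpl4* (112), *Rpl8* (98.8) and *Rplp0* (95.6), the protein on which the stalk is built. The lowest tested members were *Rpl22l1* (2.44), *Rps19* (4.52), *Rpl35a* (4.56), *Rpl39* (5.13) and *Rpl13a* (5.21). These levels rest on reads that align to a single place, and ribosomal protein genes have many processed pseudogenes. A median of 54.0% of a member's 50-base stretches occurred in no other annotated transcript, with 94.8% for *Rpl22*, 90.8% for *Rpl7l1* and 86.3% for *Rps27l* but 6.16% for *Rpl5* and 4.91% for *Rpl35*.

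The 7 members without a test are each listed at or near 0 in all groups. No count was found in any of the 19 libraries for *Rpl13*, *Rpl36al* and the paralogues *Rpl10l*, *Rpl39l* and *Rps27rt*. *Rpl24* held 6 counts over 4 embryos and *Rpl3l* 4 counts over 3 embryos. A count of 0 allows up to 3 counts, which is between 0.371 and 3.65 CPM in these libraries. *Rpl10l*, *Rpl39l* and *Rpl3l* are known mainly from testis or muscle. *Rpl13* and *Rpl24*, by contrast, encode core proteins that every ribosome holds, so their absence here does not measure their RNA. On the same strand, exons of *Rpl36al* overlap *Gm49383*, those of *Rpl24* overlap *Gm28037* and those of *Rpl13* overlap *Mir7079* and *Snord68*. The part of these overlaps in the missing counts was not tested, so the 0 of *Rpl36al* is not read as absence of its RNA either. *Fau* (28.1 ± 3.86 CPM in ctrl) and *Rack1* (125 ± 11.4), which encode ribosomal proteins outside the symbol rule, were not called against ctrl in either mutant.

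As a family, the ribosomal protein genes took 0.394% to 0.480% of all gene counts in the 7 ctrl embryos, with a median of 0.434%. The cKO-E embryos A to E held 0.396%, 0.409%, 0.374%, 0.388% and 0.403%. In dKO-E the share ran from 0.355% to 0.496% with a median of 0.404%. The mean was 0.445% ± 0.0333 (SD, n = 7) in ctrl, 0.394% ± 0.0137 (n = 5) in cKO-E and 0.417% ± 0.0449 (n = 7) in dKO-E, and the groups overlapped. Both mutants' means were under the ctrl mean, and the widest spread was in dKO-E, where embryo A held the lowest share of all 19 and embryo B the highest, although both came from litter 1 and batch 1.

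The ctrl embryos themselves fell apart by sequencing batch. Those of batch 1 held 0.394% to 0.434% and those of batch 2 held 0.474% to 0.480%, without overlap. Within batch 1 the cKO-E embryos held 0.374% to 0.409%, overlapping with ctrl, and within batch 2 they held 0.388% to 0.403%, below all ctrl embryos. The summed level of 9 cortical neuron markers also differed between the batches in ctrl (3559 to 4059 CPM in batch 1 and 2734 to 3015 in batch 2), and its part in the shares was not tested. In bulk tissue, fewer cells with high ribosomal protein expression and less of this RNA per cell cannot be told apart.

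**Figure D1:**
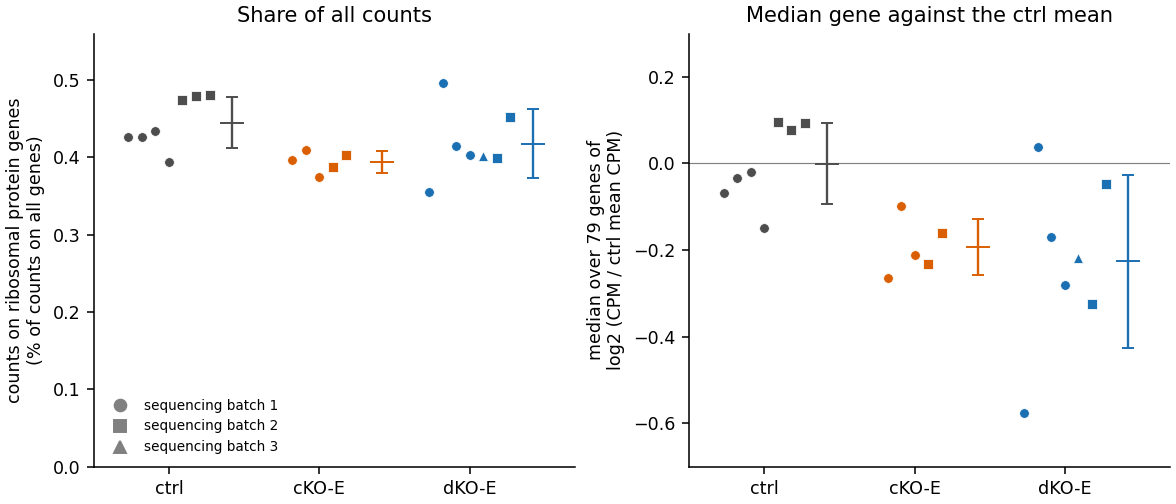
Left, counts on the 86 ribosomal protein genes as percent of counts on all genes, 1 point per embryo, by genotype, with marker shape for sequencing batch. Right, the median over the 79 tested genes of the log2 ratio of an embryo's CPM to the ctrl mean. Bars give the mean and SD of 7 ctrl, 5 cKO-E and 7 dKO-E embryos. All cKO-E embryos lie below 0 on the right, dKO-E A lies at -0.58 and dKO-E B at 0.04.

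Each embryo was also summarized by the median of its 79 genes against the ctrl mean, on the log2 scale. This median ranged from -0.15 to 0.10 in ctrl, from -0.26 to -0.10 in cKO-E and from -0.58 to 0.04 in dKO-E. Of the dKO-E embryos, A (-0.58) stood lowest, F (-0.32) and D (-0.28) came next, and B (0.04) and G (-0.05) lay within the ctrl range. dKO-E A was also the library with the lowest mitochondrial share, and the relation of this to its low median was not tested.

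The first comparison asked which members changed in cKO-E, where *Ino80* is deleted and p53 is intact. At a false discovery rate (FDR) of 0.001, 3 members fell and none rose, where 2.32% of all 11660 genes tested fell and 1.06% rose at this threshold. The 3 were *Rpl7l1*, *Rpl12* and *Rpl17* (3.80% of the 79 tested). At an FDR of 0.05, 22 members fell (27.8%, against 9.88% of all genes) and *Rps27l* rose, against 7.31% of all genes. The log2 fold change was below 0 for 65 of 79 members, with a median of -0.16 beside 0.02 for all genes. In 11 members every cKO-E embryo was below every ctrl embryo, as in 5.64% of all genes, and in no member was every cKO-E embryo above, as in 3.19%. The number of members that fell at an FDR of 0.05 was 13 without cKO-E C (16.5%, against 7.46% of genes) and, within single batches, 13 in batch 1 (16.5%, against 8.67% of genes) and 8 in batch 2 (10.1%, against 2.7%). At 0.001 it was 1 without cKO-E A, without C or without E.

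The second comparison was of dKO-E with the same ctrl embryos, and so the 2 comparisons share their controls. At an FDR of 0.001, 2 members fell, *Rpl7l1* and *Rpl17* (2.53%, against 2.34% of the 11381 genes tested), and none rose, against 0.246%. At 0.05, 18 members fell (22.8%, against 10% of all genes) and none rose, against 5.45%, and 2 were higher at an unadjusted p under 0.05. The likelihood-ratio test and DESeq2 also called none higher at 0.05. The median log2 fold change was -0.21, beside 0.01 for all genes, and 65 of 79 members were below 0. In 5 members all dKO-E embryos were below all ctrl embryos, as in 3.22% of all genes, and in none were they all above, as in 1.2%.

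The count of members that fell in dKO-E changed with litter and batch. With litter as a block, which rests on the single litter shared with ctrl, 4 members fell at 0.05 (5.06%, against 4.05% of genes), and within batch 1 there were 8 (10.1%, against 8.19%), both shares near the background. Within batch 2 there were 10 (12.7%, against 2.53%). Without the 2 libraries of low mitochondrial share, dKO-E A and E, 11 members fell (13.9%, against 7.56%) and the median was -0.16. With total counts in place of TMM factors, which moved the median of all genes to 0.10, 11 members fell (13.9%, against 6.1% of genes), 2 rose, and the median of the members was -0.12.

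**Figure D2:**
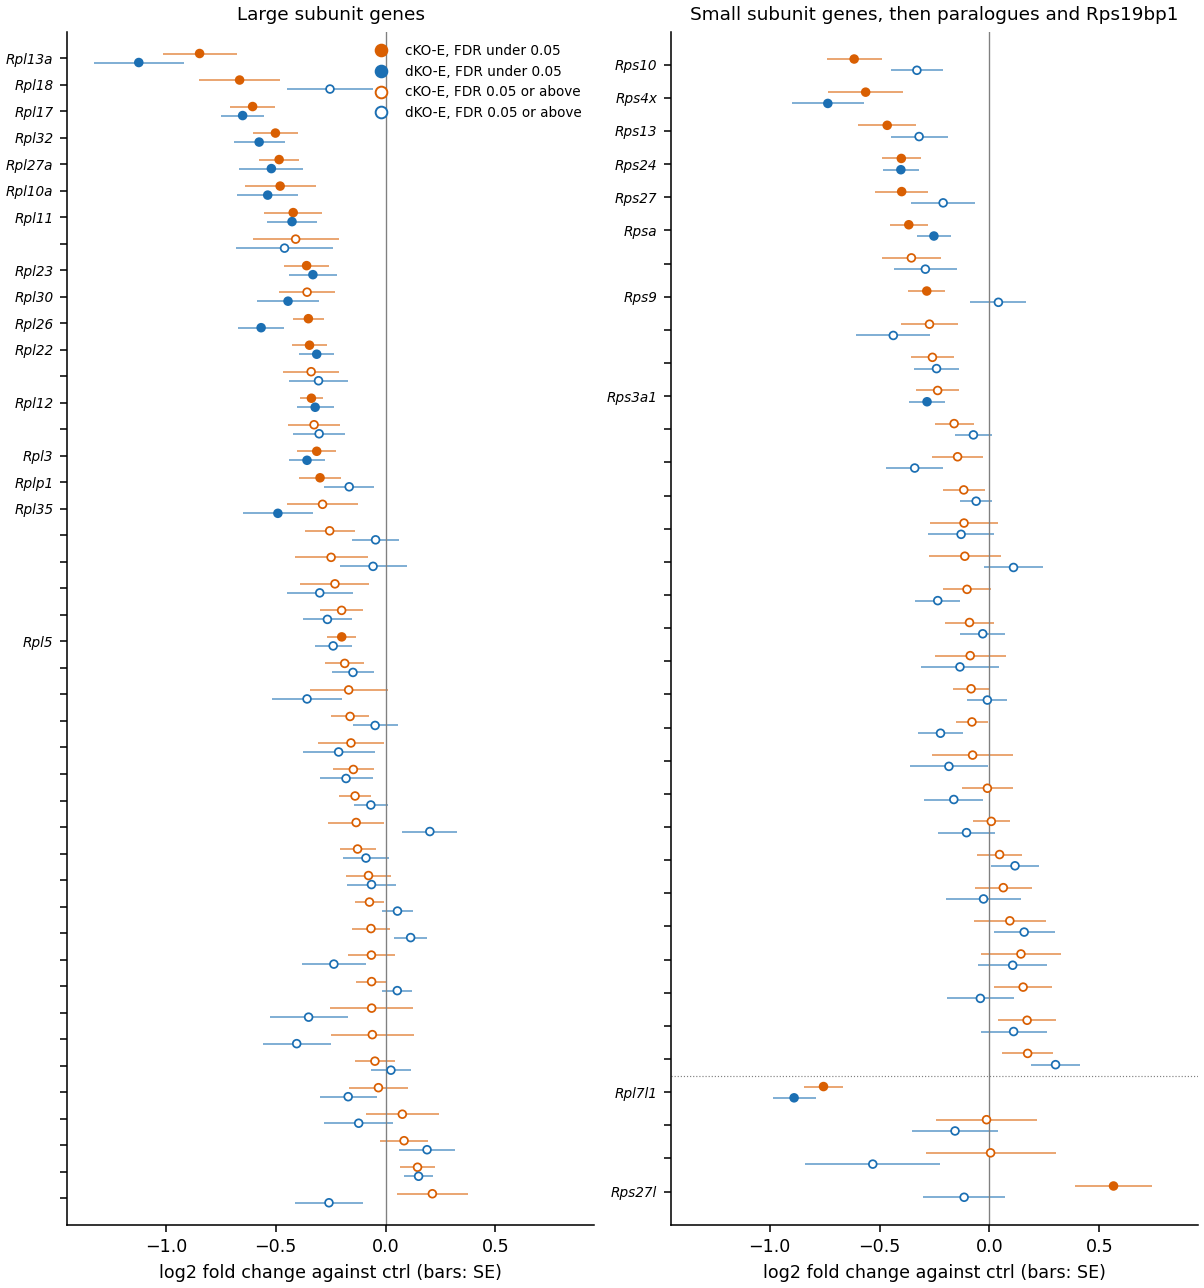
Log2 fold change of each of the 79 tested genes in cKO-E (orange) and dKO-E (blue) against the same 7 ctrl embryos, with bars for the standard error. Filled points passed an FDR of 0.05, and genes with a filled point are labelled. Most points lie left of 0, 65 of 79 in each comparison, and *Rps27l* is the 1 filled point on the right.

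*Rpl7l1*, a paralogue of the large subunit gene *Rpl7*, had the smallest p of all members in both comparisons (chr17:46773907-46782672, minus strand). It was between 40.9 and 51.0 CPM in ctrl, with a median of 45.6. The cKO-E embryos A to E held 24.1, 26.5, 27.3, 34.6 and 25.6 CPM, and dKO-E levels ran from 19.2 to 32.0 (median 23.8). No embryo of either mutant reached the lowest ctrl embryo. On the log2 scale it fell by 0.76 in cKO-E (SE 0.09, adjusted p = 2.32e-05) and by 0.89 in dKO-E (SE 0.10, adjusted p = 4.91e-06), by edgeR's quasi-likelihood test. The fall passed an FDR of 0.05 within batch 1, within batch 2 and with litter as a block, as in all 25 alternatives run for cKO-E (-0.81 to -0.67) and all 28 for dKO-E (-1.01 to -0.69). Between the mutants the difference was -0.13 (SE 0.13, adjusted p = 0.585). No other annotated gene overlaps its exons.

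Its parent *Rpl7*, which encodes a large subunit protein, did not pass in either comparison. *Rpl7* was between 60.4 and 91.0 CPM in ctrl, at 59.7, 64.8, 77.3, 71.6 and 76.6 in cKO-E A to E, and between 32.0 and 91.2 in dKO-E, so the groups overlapped. The log2 ratio of *Rpl7l1* to *Rpl7* within an embryo was -0.69 ± 0.19 (SD, n = 7) in ctrl and -1.34 ± 0.21 (n = 5) in cKO-E, a difference of -0.65 with all 5 cKO-E embryos below all ctrl embryos (exact permutation test, two-sided, p = 0.00126, 0.00567 adjusted over 9 ratio tests). In dKO-E it was -1.35 ± 0.68 (n = 7), with 6 of 7 embryos below all ctrl embryos and 1 above all of them (exact permutation p = 0.0315, adjusted p = 0.0709).

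*Rpl17*, a large subunit gene whose product lines the exit of the peptide tunnel, fell with a similar size in each mutant (chr18:74998558-75003381, plus strand). It was between 67.4 and 91.4 CPM in ctrl, with a median of 74.0. The cKO-E embryos A to E held 55.7, 63.1, 44.1, 48.2 and 49.6 CPM, and dKO-E levels ran from 38.2 to 58.1 (median 52.0). All mutant embryos were below all ctrl embryos. The log2 fold change was -0.61 (SE 0.10, adjusted p = 5.88e-04) in cKO-E and -0.65 (SE 0.10, adjusted p = 1.48e-04) in dKO-E. In dKO-E the call at 0.05 was lost within batch 2 alone (-0.50, adjusted p = 0.0645). Of its 50-base stretches, 55.3% occur in no other annotated transcript.

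*Rpl12*, a protein of the stalk base, was below ctrl in every cKO-E embryo but overlapped with ctrl in dKO-E (chr2:32961559-32965345, plus strand). It was between 168 and 187 CPM in ctrl, with a median of 175. The cKO-E embryos A to E held 139, 149, 136, 145 and 133 CPM, all below ctrl. In dKO-E the levels ran from 113 to 178 CPM (median 140), and dKO-E B (178 CPM) lay within the ctrl range. The log2 fold change was -0.34 (SE 0.05, adjusted p = 3.23e-04) in cKO-E and -0.32 (SE 0.08, adjusted p = 0.0138) in dKO-E. The exons of *Rpl12* overlap those of *Lrsam1* on the other strand and *Snora65* on its own, and whether the counting used strand was not given in the sources used here, so these reads cannot be told apart.

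The members next to the threshold of 0.001 were *Rpl27a* in cKO-E and *Rpl13a* in dKO-E, both just outside it. *Rpl27a* fell by 0.48 on the log2 scale in cKO-E (adjusted p = 0.00149) and by 0.52 where p53 was deleted too (adjusted p = 0.0208). *Snora3* overlaps the exons of *Rpl27a* on the same strand. *Rpl13a*, known also for a role in translational silencing in inflammation, fell most on the log2 scale but on few counts, between 3 and 58 per library. It was between 9.56 and 12.2 CPM in ctrl, at 6.92, 4.23, 6.93, 4.94 and 6.75 in cKO-E A to E, and between 1.41 and 7.13 in dKO-E. No mutant embryo reached the ctrl range, with log2 fold changes of -0.85 (adjusted p = 0.00229) and -1.12 (adjusted p = 0.00101). *Gm45713* and the small RNA genes *Mir5121* and *Snord33* overlap its exons on the same strand.

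Of the 44 large subunit genes tested, 14 fell in cKO-E at 0.05 (31.8%, against 9.88% of all genes, median -0.20) and 13 in dKO-E (29.5%, against 10%, median -0.26), and none rose. In cKO-E these were *Rpl3*, *Rpl5*, *Rpl10a*, *Rpl11*, *Rpl12*, *Rpl13a*, *Rpl17*, *Rpl18*, *Rpl22*, *Rpl23*, *Rpl26*, *Rpl27a*, *Rpl32* and *Rplp1*. In dKO-E they were *Rpl3*, *Rpl10a*, *Rpl11*, *Rpl12*, *Rpl13a*, *Rpl17*, *Rpl22*, *Rpl23*, *Rpl26*, *Rpl27a*, *Rpl30*, *Rpl32* and *Rpl35*. Among these large subunit calls, those lost most often in cKO-E were *Rpl5* (17 of 25 alternatives) and *Rpl10a* (15 of 24). Lost most often in dKO-E were *Rpl23* (22 of 28), *Rpl30* (18 of 28) and *Rpl35* (17 of 28). *Rpl32*, among the most abundant, fell by 0.50 on the log2 scale in cKO-E (adjusted p = 0.00260) and kept the call at 0.05 in all 25 alternatives. Its ctrl level itself differed by batch, from 108 to 129 CPM in batch 1 and from 151 to 163 in batch 2, and all cKO-E embryos (82.8 to 102 CPM) were below both. In dKO-E *Rpl32* ran from 57.9 to 111 CPM and overlapped with ctrl (-0.58, adjusted p = 0.00227). The exons of *Rpl32* overlap those of *Snora7a* on the same strand and of *Cand2* on the other. *Rpl18* fell in cKO-E (-0.66, adjusted p = 0.0201) and did not pass in dKO-E (-0.25, adjusted p = 0.421), and the direct test between the mutants gave 0.42 (adjusted p = 0.231).

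Of the 31 small subunit genes tested, 7 fell in cKO-E at 0.05 (22.6%, against 9.88% of all genes, median -0.11) and none rose. In dKO-E 4 fell (12.9%, median -0.13) and none rose, a share near the 10% of all genes. In cKO-E these were *Rps4x*, *Rps9*, *Rps10*, *Rps13*, *Rps24*, *Rps27* and *Rpsa*, and in dKO-E *Rps3a1*, *Rps4x*, *Rps24* and *Rpsa*. *Rpsa*, which is also known as a laminin receptor, was the most abundant of the small subunit genes at 201 to 278 CPM in ctrl. The cKO-E embryos A to E held 171, 193, 166, 161 and 184 CPM, all below ctrl (-0.37, adjusted p = 0.00690, past 0.05 in all 25 alternatives). The dKO-E embryos held 175 to 217 CPM and overlapped with ctrl (-0.25, adjusted p = 0.0318, lost in 13 of 28 alternatives). *Gm24044* overlaps the exons of *Rpsa* on the same strand. *Rps4x*, which is on the X chromosome, was between 33.8 and 64.8 CPM in ctrl and between 17.4 and 33.5 in dKO-E, without overlap (-0.74, adjusted p = 0.00493, past 0.05 in all 28 alternatives, sex as a covariate among them). *Rps10* fell in cKO-E (-0.62, adjusted p = 0.00260) and did not pass in dKO-E (-0.33, adjusted p = 0.0638). Its exons overlap those of *RPS10-NUDT3* on the same strand and of *Gm15420* on the other.

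At the other end, several abundant members showed values close to ctrl. *Rpl4* was at -0.07 (SE 0.07) in cKO-E and 0.05 (SE 0.07) in dKO-E, and *Rpl8* at -0.06 (SE 0.07) and 0.05 (SE 0.07). *Rpl7a* (0.15 and 0.15) and *Rps2* (0.17 and 0.30) were above 0 in each comparison without passing 0.05. Over the 79 genes the log2 differences ran from -0.85 to 0.56 in cKO-E and from -1.12 to 0.30 in dKO-E.

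Of the 3 stalk genes, *Rplp1* fell in cKO-E (-0.30, SE 0.10, adjusted p = 0.0419) but lost the call in 9 of 25 alternatives, and in dKO-E it was at -0.17 (adjusted p = 0.356). *Rplp0* was at -0.07 (adjusted p = 0.662) and 0.11 (adjusted p = 0.333), and *Rplp2* at -0.05 (adjusted p = 0.783) and 0.02 (adjusted p = 0.901). No difference among the 3 was tested.

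**Figure D3:**
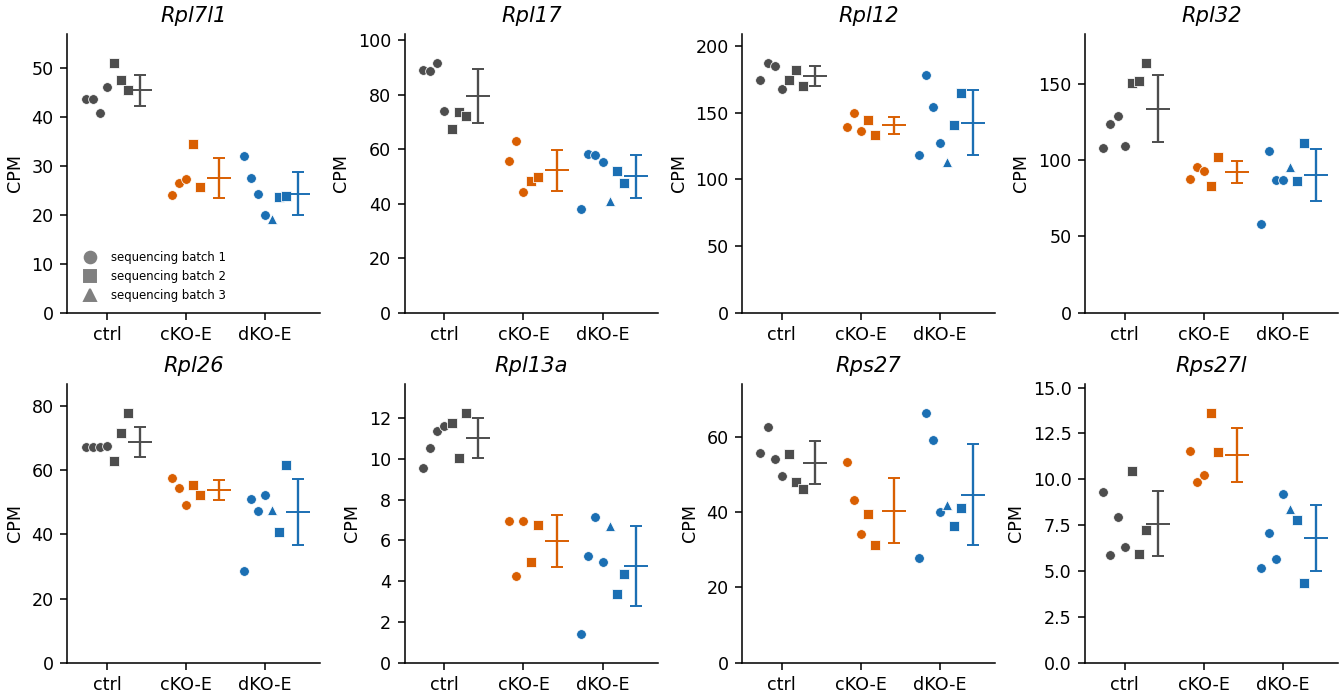
CPM of 8 members by genotype, 1 point per embryo, with marker shape for sequencing batch and bars for the mean and SD of 7 ctrl, 5 cKO-E and 7 dKO-E embryos. All axes start at 0. *Rpl7l1*, *Rpl17*, *Rpl26* and *Rpl13a* show no overlap between either mutant and ctrl, and *Rps27l* is highest in cKO-E, at 9.86 to 13.6 CPM.

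*Rps27l*, a paralogue of the small subunit gene *Rps27* and a known p53 target, was the member that differed between the mutants (chr9:66946086-66949516, plus strand). It was between 5.88 and 10.5 CPM in ctrl, with a median of 7.23. The cKO-E embryos A to E held 11.5, 9.86, 10.2, 13.6 and 11.5 CPM, and dKO-E levels ran from 4.32 to 9.18 (median 7.06). All dKO-E embryos were below all cKO-E embryos, while ctrl F (10.5 CPM) lay within the cKO-E range. In the direct comparison it was lower in dKO-E by -0.67 on the log2 scale (SE 0.18, adjusted p = 0.0170), the 1 member of 79 called lower at 0.05 (1.27%, against 9.42% of the 11746 genes tested). The rise in cKO-E against ctrl was 0.56 (SE 0.18, adjusted p = 0.0341), and it lost the call at 0.05 in 14 of 25 alternatives, with adjusted p between 0.0174 and 0.347 over them. Counts were between 4 and 46 per library.

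*Rps27* itself moved the other way in cKO-E, at -0.40 (SE 0.12, adjusted p = 0.0310), with 53.4, 43.4, 34.3, 39.5 and 31.4 CPM in cKO-E A to E and 46.1 to 62.8 in ctrl. This call was lost in 10 of 25 alternatives. In dKO-E *Rps27* was at -0.21 (adjusted p = 0.357), between 27.8 and 66.4 CPM. Of its 50-base stretches, 36.9% occur in no other annotated transcript. The log2 ratio of *Rps27l* to *Rps27* was -2.80 ± 0.33 (SD, n = 7) in ctrl, -1.80 ± 0.35 (n = 5) in cKO-E and -2.66 ± 0.54 (n = 7) in dKO-E. All 5 cKO-E embryos were above all ctrl embryos, with a difference of 1.01 (exact permutation test, two-sided, p = 0.00126, 0.00567 adjusted over 9 ratio tests). Between the mutants the ratio differed by -0.87 (exact permutation p = 0.0177, adjusted p = 0.0531), with 6 of 7 dKO-E embryos below all cKO-E embryos. The pair *Rpl22l1* and *Rpl22* gave no adjusted p under 0.05 in the 3 comparisons of its ratio. *Rpl22* alone fell by 0.35 on the log2 scale in cKO-E (adjusted p = 0.00615) and by 0.31 in dKO-E (adjusted p = 0.0111), whereas *Rpl22l1* held between 1 and 33 counts per library and was at 0.01 and -0.53.

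Apart from *Rps27l*, no member was called between dKO-E and cKO-E. None was higher at 0.05, against 5.59% of all genes, and at 0.001 none was lower or higher, against 2.75% and 0.383%. At an unadjusted p under 0.05, 4 were higher and 2 lower, and with sex as a covariate 6 were higher at 0.05, in groups with 4 of 5 and 2 of 7 females. The likelihood-ratio test and DESeq2 each called 0 higher. The median log2 fold change was -0.02, beside 0.02 for all genes. *Rps27l* was the 1 member whose dKO-E embryos were all below those of cKO-E, as in 4.64% of all genes, and none was all above, as in 2.52%. *Rpl37a* came next to the threshold, at -0.46 with an adjusted p of 0.0700.

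Among the 15 members listed as regulators of p53 and MDM2, 5 fell (33.3%, against 9.88% of all genes and 27.8% of the family) and 1 rose in cKO-E at 0.05, and 3 fell in dKO-E (20%, against 10% and 22.8%). Of the 5 calls in cKO-E, that of *Rpl5* was lost in 17 of 25 alternatives, that of *Rps27* in 10, that of *Rpl11* in 9 and that of *Rpl23* in 6. *Rpl11* was between 26.2 and 32.1 CPM in ctrl, at 14.5, 28.2, 21.9, 18.5 and 24.0 in cKO-E A to E (-0.42, adjusted p = 0.0371) and at 15.5 to 27.6 in dKO-E (-0.43, adjusted p = 0.0143). *Rpl5* was at -0.20 (adjusted p = 0.0432) and -0.24 (adjusted p = 0.0633). *Rpl26*, which is known to bind p53 mRNA, was between 62.8 and 77.8 CPM in ctrl, between 49.2 and 57.7 in cKO-E and between 28.7 and 61.6 in dKO-E, without overlap with ctrl in either mutant (-0.35, adjusted p = 0.00229, and -0.57, adjusted p = 0.00103). *Rpl23* and *Rps27* also fell in cKO-E and *Rpl23* in dKO-E. Of the 3 calls in dKO-E, that of *Rpl23* was lost in 22 of 28 alternatives, that of *Rpl11* in 2 and that of *Rpl26* in 1. *Mdm2* was at 87.3 ± 3.41 CPM in ctrl, 98.3 ± 11.4 in cKO-E and 94.6 ± 10.1 in dKO-E, and was not called in any of the 3 comparisons.

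Genes related to the ribosomal proteins were counted beside them, from lists chosen by function or by the TOP start of their mRNAs. The list of 19 genes with TOP mRNAs holds translation factors and other genes, *Tpt1*, *Nap1l1* and *Hnrnpa1* among them. Of these 19, 5 fell in cKO-E at 0.05 (26.3%, against 9.88% of all genes) and none rose (median -0.16). In dKO-E 6 of them fell (31.6%, against 10%) and none rose (median -0.12). *Naca*, the nascent chain binding factor, was at -0.49 and -0.36, and *Tpt1* at -0.37 and -0.39. *Nap1l1* was at -0.32 and -0.23, and *Eif3f* at -0.34 and -0.35, all 4 with adjusted p under 0.05 in each comparison. *Eef1a1*, the elongation factor that delivers tRNA, fell in cKO-E (-0.23, adjusted p = 0.0357), and *Eef1g* (-0.40) and *Eef1b2* (-0.29) in dKO-E.

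Genes for making ribosomes showed other values. For all genes tested, the shares at 0.05 were 9.88% lower and 7.31% higher in cKO-E, and 10% lower and 5.45% higher in dKO-E. Of 66 ribosome biogenesis factors tested, 1 rose and none fell in cKO-E (median 0.06), and 7 rose and 1 fell in dKO-E (median 0.13). The 1 that rose in cKO-E was *Mdn1*, the ATPase that strips factors from the large subunit precursor, at 0.24, and it was at 0.23 in dKO-E. *Bop1*, which acts in large subunit processing, was at 0.55 in dKO-E (adjusted p = 0.00118) and was higher there than in cKO-E as well (0.38, adjusted p = 0.0285). Of 15 genes of RNA polymerase I and its factors, *Polr1e* rose in cKO-E (0.66) and in dKO-E (0.51), where *Polr1a* also rose and *Ubtf* fell. Among 72 mitochondrial ribosomal protein genes tested in cKO-E, 5 fell (6.94%) and none rose (median -0.02). Among 71 in dKO-E, 4 fell (5.63%) and 1 rose (median 0.04), and both lower shares were under those of all genes. Of 24 other initiation factors, *Eif4g3* and *Eif1ax* fell in each comparison (8.33%), *Eif4a1* rose in cKO-E and *Eif3i* and *Eif4e* rose in dKO-E. Of 19 tested regulators of TOP mRNAs and growth, 2 rose and 2 fell (10.5%) in cKO-E and 2 rose and 1 fell (5.26%) in dKO-E. Of 10 noncoding snoRNA host genes none was called against ctrl at 0.05. At an unadjusted p under 0.05, 1 of these was higher in cKO-E and 1 lower in dKO-E.

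**Figure D4:**
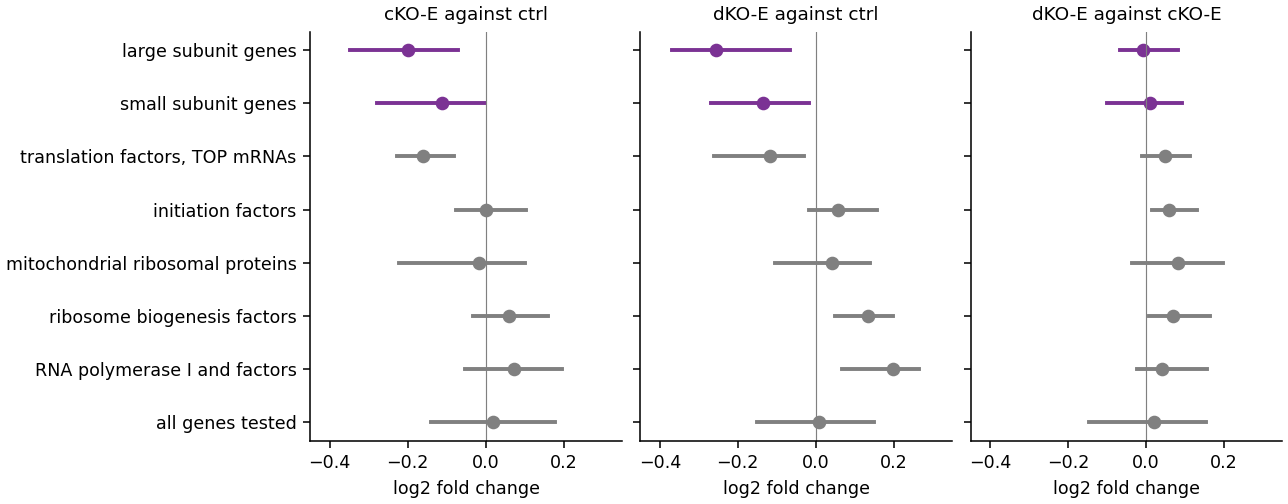
Median log2 fold change (point) and interquartile range (line) for large and small subunit genes (purple), related lists (grey) and all genes tested, in the 3 comparisons. The list labelled as translation factors with TOP mRNAs also holds other genes, such as *Tpt1* and *Nap1l1*. The large subunit genes lie at -0.20 in cKO-E and -0.26 in dKO-E, the ribosome biogenesis factors at 0.06 and 0.13, and the subunit lists lie near 0 between the mutants.

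Members have short transcripts (median 925.5 bases), but the annotated exons of those tested add up to between 383 and 6270 bases. Genes outside the family were counted in classes of this exon length. Of 662 under 1500 bases, 3.78% fell in cKO-E at 0.05 and the median was 0.06, and of 615 in dKO-E 5.53% fell and the median was 0.06. From 1500, 3000 and 6000 bases upward, the classes had 5.16%, 8.66% and 14% lower in cKO-E. In dKO-E these were 5.09%, 7.41% and 15.4%. Of the members, 27.8% fell in cKO-E and 22.8% in dKO-E. Markers of other cell states moved with genotype as well. In cKO-E, 7 of 10 tested progenitor markers fell and 1 (*Fabp7*) rose, 1 of 7 neuron markers (*Stmn2*) rose, and the summed level of 12 microglial markers was 31.0 to 40.8 CPM against 6.46 to 17.4 in ctrl. In dKO-E, 2 of 10 progenitor markers and 2 of 7 neuron markers fell, and microglial markers were at 6.69 to 11.3 CPM. The summed level of 7 markers of the ventral interneuron lineage was 9.6 to 83.7 CPM in ctrl, 64.8 to 119 in cKO-E and 29.0 to 69.7 in dKO-E. Of the 4 tested, 1 rose in cKO-E against ctrl (median 0.86), and all 4 were lower at 0.05 in dKO-E than in cKO-E. The 6 markers of meninges were at 1.24 to 7.42 CPM in cKO-E, at 34.3 to 67.0 in dKO-E B, C and E and at 65.4 in ctrl F. The part of cell composition in the changes of ribosomal protein genes was not tested.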

How the data were processed

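RNA of E13.5 cortex was measured in 7 ctrl, 5 cKO-E and 7 dKO-E embryos by Click-seq after depletion of ribosomal RNA. The authors trimmed reads with cutadapt 1.13, aligned them to mm10 with STAR 2.5.2a, removed duplicates with UMI-tools 0.5.3 and counted reads per gene with HTSeq 0.6.1p1. The deposited values are raw counts per gene. The strand setting and annotation release of the counting were not given in the sources used here. Exons of 28 members overlap another annotated gene on the same strand and those of 19 on the other strand, not all of them named above. Lines that name no gene were left out: reads not uniquely aligned made up 14.9% to 20.9% of all lines, reads without a feature 4.96% to 12.5% and ambiguous reads 1.78% to 2.07%.

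Identifiers were matched to GENCODE M21 (GRCm38) without version, and 51719 of 51912 were found. Each pair of genotypes was fitted without covariates in edgeR 4.0.16 (R 4.3.3, limma 3.58.1) with filterByExpr at its minimum count of 10, TMM factors, the quasi-likelihood test and Benjamini-Hochberg adjustment over all genes tested, after testing on simulated data. Calls were made at an FDR of 0.001 against ctrl and 0.05 between mutants, with 0.05 given beside the former. SE is the log2 fold change divided by the square root of F. Paralogue ratios used log2 of counts plus 0.5. With 1 library per embryo, p-values measure the spread between embryos, which in dKO-E come from only 2 litters. The main fits hold no litter term. The floors given for genes without a count cover counting error alone.

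The members, lists and tests were chosen with earlier results of these data known. Named genes are called members, those next to a threshold, the 5 highest and 5 lowest per length, paralogue pairs, stalk genes, regulators of p53 and MDM2, and called genes of the related lists. Values of a few genes are not reported here. Members called only at 0.05 and those close to ctrl were named after their values were seen. Alternatives covered DESeq2 1.42.0, the likelihood-ratio test, other scalings, filters and thresholds, batch, sex, litter and letter terms, single batches, 1 fit over all embryos, and each embryo left out. Figures were drawn with matplotlib 3.10.9 (Python 3.11.15).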

Additional observations from a re-analysis of the deposited data

Results flagged for a closer look

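*Rps27l* was marked because its effect differed between the mutants in a direct test, at -0.67 on the log2 scale in dKO-E against cKO-E.

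Levels of 8 genes were marked because 1 embryo stood far from the others of its group. The gap was looked for in 47 members and in the family's summary values, over 147 groups, and chance alone marks about 1 in 20 groups, or 7.35 here. In cKO-E D, the shallowest library, *Rpl10a* was at 7.41 CPM (others 16.2 to 19.2) and *Rps26* at 65.5 (others 27.7 to 30.7). *Rpl23* was at 18.8 CPM in cKO-E A (others 23.7 to 24.7). In dKO-E A, *Rps20* was at 23.1 CPM (others 40.0 to 51.0) and *Rps27a* at 24.97 (others 56.3 to 73.5). In dKO-E B, *Rpl22* was at 89.4 CPM (others 63.6 to 74.3) and *Rpl4* at 296 (others 213 to 242). *Rpl35* was at 35.7 CPM in dKO-E G (others 13.7 to 23.1).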

How the results depend on the processing

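No called result changed direction under the alternatives run. The median of the members between the mutants, which lay near 0, ranged from -0.07 to 0.04 with 1 embryo left out. Of 23 members called at 0.05 in cKO-E, 4 kept the call in all alternatives run for them (*Rpl7l1*, *Rpl17*, *Rpl32* and *Rpsa*), as did 2 of 18 in dKO-E (*Rpl7l1* and *Rps4x*). The causes of the differences below were not tested.

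Members lower in cKO-E at 0.001 numbered 8 by the likelihood-ratio test, 6 by DESeq2, 6 without a filter, 5 with batch as a covariate, 1 in batch 1 and 0 in batch 2, 22 at 0.05, and 1 to 3 with 1 embryo left out (1 without cKO-E A, C or E). At 0.05 they numbered 13 in batch 1, 8 in batch 2 and 13 to 22 with 1 embryo left out (13 without cKO-E C). The single member higher at 0.05, *Rps27l*, became 0 by DESeq2, without a filter, with sex, the replicate block or litter, and in either batch, and 0 to 1 with 1 embryo left out (0 without ctrl B, D or H or cKO-E A, C, D or E). The count at 0.001 was 0 and at 0.05 it was 1. The median was -0.24 in batch 2 and -0.10 in batch 1.

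Members lower in dKO-E at 0.001 numbered 8 by the likelihood-ratio test, 7 by DESeq2, 6 without a filter, 4 with sex, 5 in 1 fit over all embryos, 0 with the replicate block, 0 with litter, 0 in batch 1 and 0 in batch 2, 18 at 0.05, and 2 to 4 with 1 embryo left out (4 without dKO-E A). At 0.05 they numbered 11 with total counts, 10 with the replicate block, 4 with litter, 8 in batch 1, 10 in batch 2, 11 without dKO-E A and E (chosen after seeing the data) and 13 to 22 with 1 embryo left out. Members higher at 0.05 numbered 2 with total counts, 1 with sex, 1 in 1 fit, and 0 to 1 with 1 embryo left out (1 without ctrl F, ctrl H or dKO-E D).

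Between the mutants, members lower numbered 2 without a filter, 0 in batch 1, 0 in batch 2 and 0 at 0.001. Members higher numbered 2 with total counts, 1 without a filter, 6 with sex, 1 with the replicate block and 0 to 1 with 1 embryo left out (1 without cKO-E D, dKO-E A or dKO-E F).

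The letters of the labels name embryos and do not pair them: over 14 same-letter pairs, correlations of deviations ranged from -0.365 to 0.125, and 4 were over 0.1. In cKO-E the replicate block called 17 members lower at 0.05, with a median of -0.09 and 52 of 79 members below 0. No litter held both mutants, so litter could not be fitted between them.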
